A study of Mus musculus with 63 samples.

Results

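A pair of mouse models of diabetes was set against each other at the level of the β cell: 7 libraries from hyperglycaemic ob/ob mice (group T2D) and 4 from hyperglycaemic NOD-ICR mice (group T1D), 11 of the 63 libraries of the series, chosen by the ending of their titles. The T2D mice were of strain BTBR/mix with the alleles Cherry/+, Ins2-Cre/+ (2 of the 7 carried 2 copies of Ins2-Cre) and Ob/Ob. They were 58 to 78 days old, weighed 37.24 to 60.95 g and had a blood glucose of 408 to 534 mg/dl in 2 animals and above the 600 mg/dl limit in 5. The T1D mice were of strain NOD-ICR with Cherry/+ and Ins2-Cre/+, aged 98 to 150 days, of 23.5 to 30.25 g, with 311 to 358 mg/dl in 3 animals and above 600 mg/dl in 1. Both groups carry the same kinds of Cre and reporter allele, but no T1D mouse had 2 copies of Ins2-Cre. Every cell was sorted for mCherry, which marks cells in which the Ins2 promoter of the Cre transgene has been active. As non-diabetic references, 9 BTBR ob/+ mice (T2H, a strain label without the mix of the T2D mice, 103 to 271 mg/dl, 53 to 179 days, 2 with 2 Ins2-Cre copies) and 7 NOD-ICR mice (T1ND, 108 to 245 mg/dl, 82 to 212 days), served to show which differences were also present without diabetes. Ages and weights of T2D and T1D did not overlap, and strain, obesity, age and diabetes model change together, so that their parts in any difference below cannot be told apart.

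As background, NOD mice lose their β cells to an autoimmune attack by T cells, and cells in inflamed islets meet interferons and other cytokines. Interferons act through JAK kinases on transcription factors that bind a DNA motif called the interferon-stimulated response element and switch on antiviral genes, chemokines and the machinery that loads peptides onto MHC class I molecules. The ob allele removes leptin, the satiety hormone of fat cells. Homozygous mice overeat and become obese and insulin resistant, and on the BTBR background their β cells fail to keep up and the mice become severely hyperglycaemic. Overworked β cells are known to lose mature traits and to switch on genes of progenitors, a state called dedifferentiation for which *Aldh1a3* is the usual marker.

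The largest folds towards T1D named below were of interferon-induced genes. Promoters of 3 other interferon-induced genes are shown here, the 250 bases before the start site from RefSeq (build GRCm38.p6, reference strain C57BL/6J, not BTBR or NOD), with the core of the interferon-stimulated response element (GAAANNGAAA, or its reverse complement TTTCNNTTTC) in capitals. *Gbp2* (chr3:142620413-142620662, plus strand) codes for an interferon-induced GTPase, *Igtp* (chr11:58199306-58199555, plus strand) for another, and *B2m* (chr2:122147437-122147686, plus strand) for the light chain of MHC class I; *Gbp2* and *Igtp* were chosen for display after their values were seen.
Gbp2: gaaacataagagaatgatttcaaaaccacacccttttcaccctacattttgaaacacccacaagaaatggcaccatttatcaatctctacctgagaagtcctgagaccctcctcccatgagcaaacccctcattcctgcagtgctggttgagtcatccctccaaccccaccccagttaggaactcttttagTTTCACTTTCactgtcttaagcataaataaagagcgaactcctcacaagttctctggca
Igtp: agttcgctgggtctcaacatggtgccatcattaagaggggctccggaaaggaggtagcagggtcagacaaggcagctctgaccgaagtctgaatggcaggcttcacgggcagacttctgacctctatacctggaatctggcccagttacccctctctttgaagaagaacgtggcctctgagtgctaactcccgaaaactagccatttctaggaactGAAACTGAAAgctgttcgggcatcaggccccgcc
B2m: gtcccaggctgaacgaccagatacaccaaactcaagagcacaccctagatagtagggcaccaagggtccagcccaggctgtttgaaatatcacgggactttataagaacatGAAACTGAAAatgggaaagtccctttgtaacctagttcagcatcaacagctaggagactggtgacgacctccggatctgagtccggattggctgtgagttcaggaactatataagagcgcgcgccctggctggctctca
Each of the 3 windows held 1 match. Of 30 promoter entries for 25 of 38 interferon response genes, 15 (50%) held the core on either strand, against 3 of 19 (15.8%) for MHC class I genes and 978 of 32851 (2.98%) over the whole RefSeq promoter table. A match describes the letters of the window and not a bound site.

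Insulin transcripts were abundant in every library of both groups: *Ins1* and *Ins2* together held 14.3% to 50.3% of counts in T2D and 14.2% to 34% in T1D (exact two-sided permutation test of the means, p = 0.433). Shares of marker lists of other cells were as follows. The 19 acinar genes held 17.2, 11.4, 35.2 and 22.6% of counts in T1D 1 to 4 and 0.00316, 5.73, 34.2, 4.74, 0.0285, 1.64 and 7.10% in T2D 1 to 7 (p = 0.0939, exact permutation test). In T2D 3 and T1D 3 the acinar genes held more counts than the insulin genes, which had 14.3% and 14.2% there. The 20 myeloid genes held 0.0770% to 0.497% in T1D and 0.0171% to 0.147% in T2D (p = 0.0121, 0.0727 after adjustment over 12 shares, exact permutation test). The 10 duct genes, of which *Spp1* was the most abundant, held 0.277% to 0.530% against 0.0602% to 0.110% without overlap (p = 0.00303, the smallest that 330 regroupings allow, adjusted p = 0.0364). *Spp1* carried this difference, with mean levels of 5944 CPM in T1D and 243 CPM in T2D, while over the 10 duct genes 4 folds lay above 0 and 6 below (median log2 fold -0.10). T2D 1 and T2D 5, nearly free of acinar RNA, had correlations within T2D as low as 0.334 and 0.464 over the 2000 most abundant genes. T2D 6 correlated with every other T2D library at 0.723 or more. T2D 3 and T2D 7 reached as low as 0.334 and 0.501 within T2D, but 0.809 to 0.878 and 0.783 to 0.857 with the T1D libraries. Libraries held 31334215 to 73839270 expected counts in T2D and 38575681 to 43215224 in T1D. *Lep* had no count in either group, so the ob allele cannot be checked from these counts. In bulk RNA, fewer cells of a type and less RNA per cell cannot be told apart.

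**Figure D1:**
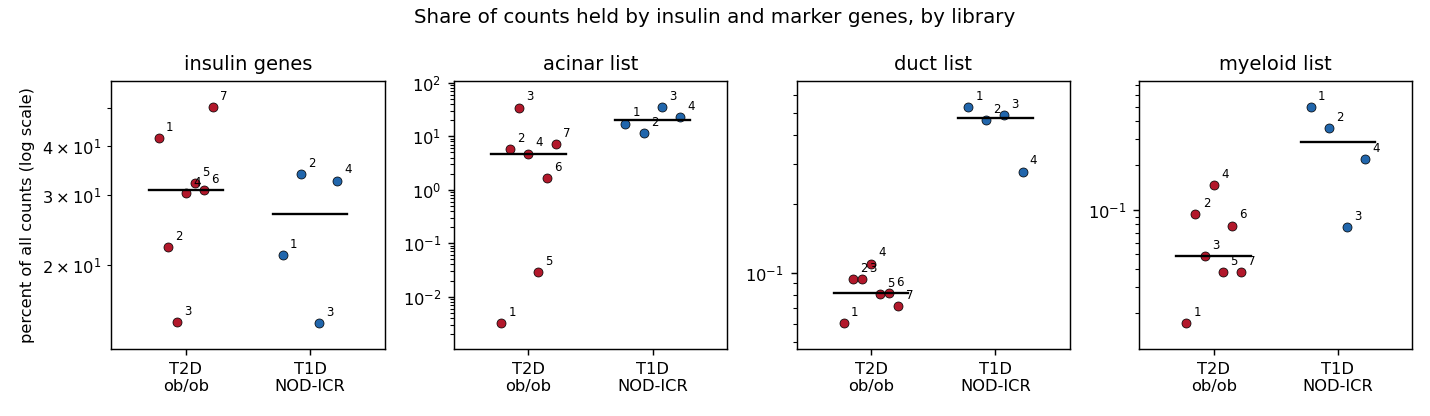
Percent of all counts (log scale) held by the insulin genes and by the acinar, duct and myeloid marker lists in each T2D and T1D library; points are libraries with their replicate number, bars are medians. The acinar share ran from 0.00316% in T2D 1 to 35.2% in T1D 3, and the duct shares, which are mostly *Spp1*, did not overlap between the groups.

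Between the diabetic groups, 2239 of 16092 genes tested (13.9%) differed at an adjusted p below 0.05 (edgeR quasi-likelihood test with a term for RNA extraction, Benjamini-Hochberg over all genes): 1111 were higher in T2D (6.9%) and 1128 higher in T1D (7.01%). Of these, 1383 differed at least 2-fold, 559 towards T2D and 824 towards T1D. The median log2 fold over all genes was 0.021. Between the non-diabetic groups T2H and T1ND, 930 genes (5.78%) were called, 349 higher in ob/+ (2.17%) and 581 higher in NOD-ICR (3.61%). The diabetic gap differed from the non-diabetic gap, by a test of the difference itself, for 345 genes (2.14%), with 169 shifted towards T2D (1.05%) and 176 towards T1D (1.09%). These percentages of all genes tested are the background for each count of called list members below. Log2 folds below are T2D over T1D unless another pair is named, with their standard error, and levels are CPM (counts scaled to one library size with TMM factors). The comparison of T2H with T1ND leans on the extraction term, since all 7 T1ND libraries and 1 of 9 T2H libraries came from Qiagen columns. Fitted on those 2 groups alone it called 18 genes, and on Qiagen libraries alone 34. Without T1D 1, the TRIzol library of its group, 1539 genes were called between the diabetic groups.

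Interferon response genes were far higher in diabetic NOD-ICR cells. Of 37 genes of the list tested, 32 were higher in T1D and 0 in T2D, with a median log2 fold of -4.45, where 7.01% of all genes tested were higher in T1D. *Irf1*, a transcription factor that interferon induces, stood at 241, 125.4, 165.3 and 142.9 CPM in T1D 1 to 4 and at 11.8, 16.2 and 22.1 CPM (lowest, median, highest) in T2D. The highest T2D library thus lay far below the lowest T1D library, and the difference came to -3.51 ± 0.28 (adjusted p = 2.07e-14, edgeR). The GTPase *Igtp*, which attacks the vacuoles of intracellular parasites, read 795, 565, 1032 and 477 CPM in T1D against 5.95, 9.01 and 15 CPM in T2D (-6.24 ± 0.45). Its relative *Irgm1* differed by -4.80 ± 0.37, and *Gbp2* by -8.30 ± 0.89, with 389.8, 337, 537 and 302 CPM against 0, 0.561 and 4.57 CPM. None of these 4 genes overlapped between the diabetic groups. Nor did 34 of the 37 genes of the list, all higher in T1D, where 5.33% of all genes tested were higher in T1D without overlap and 4.14% higher in T2D; the same shares stand behind each set without overlap named below.

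Among called genes of at least 10 CPM without overlap, the largest folds towards T1D were of interferon-induced genes. *Zbp1*, a sensor of foreign nucleic acid, stood at 104, 57.9, 95.8 and 90.3 CPM in T1D and at no more than 0.532 CPM in any T2D library (-8.77 ± 1.05). *Ubd*, a ubiquitin-like protein induced by interferon gamma and tumour necrosis factor, read 126, 59.8, 114.8 and 140.5 CPM against 0, 0.0990 and 0.942 CPM (-9.32 ± 0.88). *Ido1*, which breaks down tryptophan and restrains T cells, had 1297 counts in the 4 T1D libraries and 2 in the 7 T2D libraries. That is a ratio of 1641 with a 95% counting interval of 453 to 13568, which covers counting error only. The near-identical pairs *Tgtp1* (-10.51) and *Tgtp2* (-9.97), and *Apol9a* (-9.05) and *Apol9b* (-9.88), were also among the largest, but reads can be split within each pair and their separate values are uncertain.

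Interferon genes separated the non-diabetic animals too. In T2H against T1ND, 32 of 37 interferon genes were higher in T1ND and 0 in T2H (median -3.75), and 0 of them passed the test of the difference between the diabetic and non-diabetic gaps in edgeR (median difference -0.34). *Irf1* ran from 12.8 to 20.5 CPM in ob/+ cells and from 19.45 to 244 CPM in non-diabetic NOD-ICR cells, a gap of -3.38 ± 0.27 (adjusted p = 6.2e-15, edgeR). One NOD-ICR animal was an exception: T1ND 1 read 19.45 CPM for *Irf1* and 10.7 for *Igtp*, near the ob/+ range, while the other 6 T1ND libraries lay above every T2H library for *Irf1*. Without T1ND 1, 33 interferon genes were called between the non-diabetic groups. On Qiagen libraries alone 2 were, with the lone T2H Qiagen library at 13.2 CPM of *Irf1*, and with only those 2 groups in the fit 0 were. The count between the diabetic groups was 28 in Qiagen libraries, 28 in TRIzol libraries (where T1D is 1 library, T1D 1), 30 without the libraries above 20% acinar RNA, 30 with terms for the acinar and myeloid shares and 31 without T2D 1 and T2D 5.

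**Figure D2:**
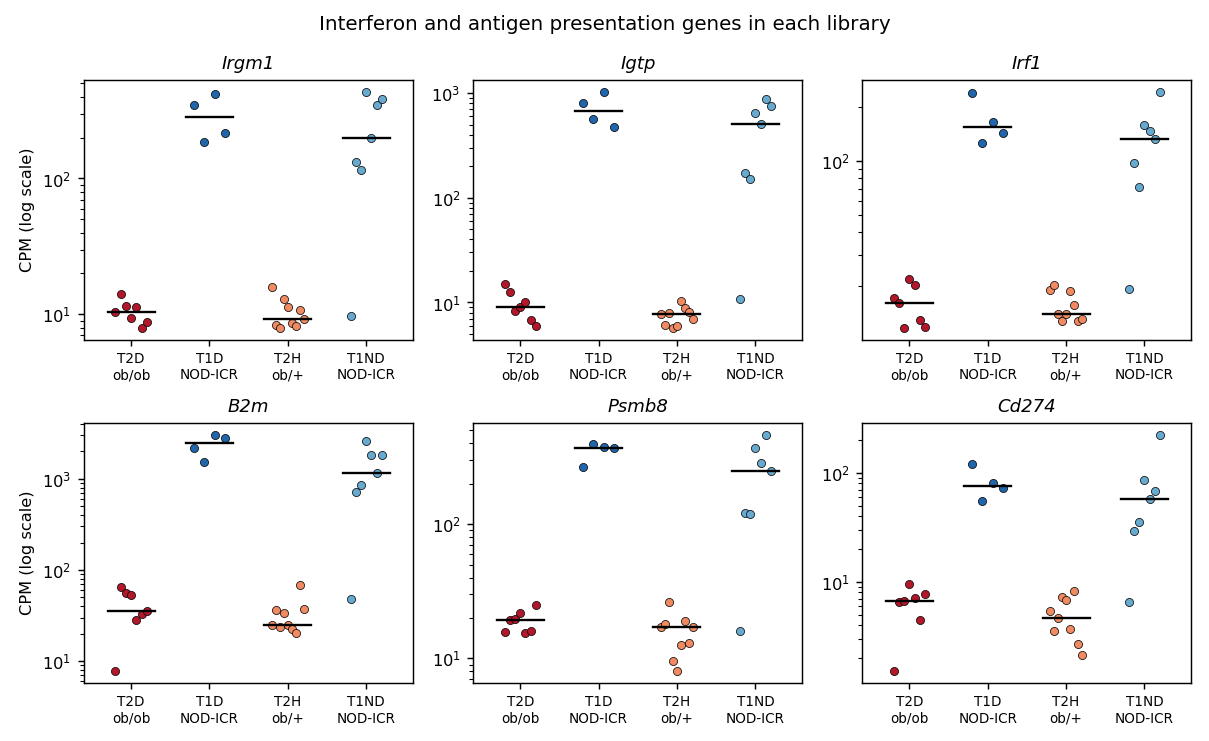
CPM (log scale) of 3 interferon response genes, 2 genes of MHC class I presentation and the checkpoint ligand gene *Cd274* in every library of 4 groups; points are libraries and bars are medians. T1D and 6 of 7 T1ND libraries sit far above both BTBR groups, and 1 T1ND library sits near them.

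Antigen presentation genes were also higher in NOD-ICR cells. All but 1 of 19 MHC class I genes tested (18) were higher in T1D (median -2.38), and 19 of 19 were higher in T1ND than in T2H (median -2.18), a count that was 0 both in Qiagen libraries alone and with only those 2 groups in the fit. *B2m*, without which class I molecules do not reach the surface, stood at 2165, 1531, 3036 and 2780.4 CPM in T1D and 7.83, 35.9 and 64.8 CPM in T2D (-5.73 ± 0.58, adjusted p = 4.92e-11, edgeR). *Psmb8* and *Psmb9*, proteasome subunits that cut proteins into peptides for class I, differed by -4.20 ± 0.38 and -4.46 ± 0.39. *Psmb8* read 269, 399, 376 and 370.1 CPM against 15.5, 19.2 and 25.1 CPM. *Tapbp*, which holds the class I molecule at the peptide transporter, differed by -2.20 ± 0.22, and *H2-T23*, a class I molecule read by natural killer cells, by -2.42 ± 0.35. None of these overlapped between T2D and T1D, which was a condition in the choice of *Tapbp* and *H2-T23*. In T1ND, *B2m* ranged from 48.5 CPM in T1ND 1 to 2615 CPM. MHC genes differ in sequence between BTBR, NOD and the reference strain, and any effect of this on mapping was not tested.

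MHC class II genes, normally a trait of professional antigen-presenting cells, were higher in T1D for 6 of 10 (median -2.33), and 7 of 10 were higher in T1ND than in T2H. Over all genes tested these shares were 7.01% and 3.61%. *H2-Aa*, a class II chain, stood at 652, 685, 498 and 713 CPM against 21.14, 98.6 and 214 CPM (-2.48 ± 0.79, adjusted p = 0.0274, edgeR). *H2-DMa*, which helps load class II, read 51.86, 57, 34.8 and 66.1 CPM against 5.62, 11.3 and 17 CPM (-2.14 ± 0.41). The levels of neither gene overlapped, but the class II count rested on single libraries. It was 2 with acinar and myeloid terms, 3 without libraries above 20% acinar RNA and 2 in Qiagen libraries. It was 2 without T1D 1 and 3, 3 and 3 without T2D 1, T2D 5 or T1D 4. The call of *H2-Aa* was lost without T2D 1 (-2.32), T2D 5 (-2.36), T1D 1 (-2.38) or T1D 4 (-2.45). Myeloid genes lay in the same direction, with 5 of 20 called higher in T1D (*Lyz2*, *Fcgr1*, *Fcer1g*, *C1qb* and *Aif1*), 1 without T1D 1, 9 without T2D 4 and 2 or 3 without any other library but T1D 3. Of these, *Aif1*, a macrophage calcium-binding protein, stood at 64.2, 105.03, 22.6 and 110.0 CPM against 0.917, 4.75 and 11.1 CPM, and *Lyz2*, lysozyme, at 2654, 1949.6, 739.8 and 1815 CPM against 15.1, 177 and 576.9 CPM (-3.04 ± 0.95; -2.46 and no longer called without T1D 1). Their part in the class II difference was not tested beyond the fit with those terms.

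Among chemokines and targets of NF-kB, 12 of 21 genes were higher in T1D and 0 in T2D (median -2.49), against 7.01% of all genes tested higher in T1D. *Cxcl10*, a chemokine that draws activated T cells through the receptor CXCR3, stood at 429.9, 273, 352 and 368 CPM in T1D and 0.0150, 0.397 and 0.964 CPM in T2D (-9.63 ± 0.97, adjusted p = 7.25e-11, edgeR). Its relative *Cxcl9* read 81.7, 49.66, 53.9 and 90.0 CPM against 0, 0.156 and 4.28 CPM (-6.13 ± 0.86). All 4 T1D libraries thus had both chemokines well above every T2D library. *Relb*, a subunit of the NF-kB family, differed by -2.49 ± 0.36, and *Nfkbia*, the inhibitor that NF-kB induces against itself, by -1.71 ± 0.25, with 104, 94.7, 83.2 and 108.1 CPM against 17.9, 32.2 and 44.3 CPM. For *Nfkbia* the non-diabetic gap was -0.63 ± 0.24 (adjusted p = 0.106, edgeR) and the difference of the gaps did not pass (-1.08 ± 0.34, adjusted p = 0.0792, edgeR). Of 15 checkpoint and complement regulators, 8 were higher in T1D and 1 (*Cd59a*, and none without T1D 1) in T2D. *Cd274*, which codes for the T cell inhibitor PD-L1, read 122, 54.8, 80.8 and 72.1 CPM against 1.52, 6.73 and 9.53 CPM (-3.78 ± 0.46, adjusted p = 7.98e-09, edgeR). *Socs1*, which shuts off JAK signalling, stood at 17.1, 10.6, 8.31 and 12 CPM against 0.132, 0.496 and 0.745 CPM (-4.83 ± 0.52), and *Cd47*, a signal against being engulfed, differed by -0.88 ± 0.14. Between the non-diabetic groups the gap of *Cd274* was -4.20 ± 0.45, with 6.59 to 224 CPM in T1ND and 2.14 to 8.32 CPM in T2H. *Stat3* and *Socs3*, the effector and the brake of leptin and interleukin-6 signalling, were higher in T1D (-0.98 ± 0.22 and -1.51 ± 0.34). The leptin receptor gene *Lepr* was low in both groups, with 2.36, 1.03, 0.440 and 2.42 CPM in T1D and 0.0150, 0.718 and 1.84 CPM in T2D (-0.92 ± 0.68, adjusted p = 0.406, edgeR).

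Cell cycle genes were the second large group, and here the median folds of the diabetic and the non-diabetic comparison had opposite signs. Of 28 proliferation genes, 18 were higher in T1D and 1 (*E2f1*, named after its value was seen, and not called without T1D 2) in T2D, with a median of -1.75. Between T2H and T1ND, 3 (*Cenpf*, *Cdc20* and *Cdkn2c*) were higher in T2H and 0 in T1ND, with a median of 0.79. The difference of the gaps passed the test for 15 of 28, all towards T1D. Over all genes tested, 7.01% were called higher in T1D, 2.17% higher in T2H, and 1.09% had gaps that differed towards T1D. A pair of the genes that differed most in this test, *Top2a* and *Ube2c*, have several CCAAT boxes before their start sites (RefSeq, GRCm38.p6; CCAAT or its reverse complement ATTGG in capitals). *Top2a* lies on the minus strand (chr11:99024190-99024439) and *Ube2c* on the plus strand (chr2:164769679-164769928); both sequences read towards the start site.
Top2a: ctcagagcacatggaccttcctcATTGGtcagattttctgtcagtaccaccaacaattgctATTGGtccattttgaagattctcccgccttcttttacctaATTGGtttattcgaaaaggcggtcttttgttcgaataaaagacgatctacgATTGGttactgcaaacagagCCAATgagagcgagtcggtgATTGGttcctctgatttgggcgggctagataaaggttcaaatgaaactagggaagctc
Ube2c: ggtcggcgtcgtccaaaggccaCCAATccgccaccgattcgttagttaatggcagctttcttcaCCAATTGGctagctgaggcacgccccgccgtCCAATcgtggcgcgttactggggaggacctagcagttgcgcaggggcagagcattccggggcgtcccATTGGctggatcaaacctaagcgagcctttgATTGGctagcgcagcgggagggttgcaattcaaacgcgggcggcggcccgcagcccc
The windows held 6 matches each, counting overlaps. Of 24 promoter entries for 23 proliferation genes, 19 (79.2%) held the box, against 33.8% of 32851 entries in all.

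*Top2a*, the topoisomerase that untangles chromosomes before division, stood at 7.74, 8.23, 8.11 and 12.6 CPM in T1D and 0.248, 1.08 and 2.08 CPM in T2D, so that every T1D library exceeded every T2D library (-2.94 ± 0.55, adjusted p = 8.73e-05, edgeR). In the non-diabetic groups it ran from 2.61 to 28.1 CPM in T2H and 1.65 to 10.9 CPM in T1ND (1.52 ± 0.52, adjusted p = 0.0681, edgeR). All 7 T2D libraries lay below the lowest T2H library. The difference of the gaps was -4.46 ± 0.73 (adjusted p = 0.000108, edgeR). *Mki67*, the antigen of cycling cells, showed the same order, with 6.82, 16.7, 4.84 and 12.3 CPM in T1D, 0.174, 2.01 and 2.92 CPM in T2D and a difference of -2.38 ± 0.59 (adjusted p = 0.00357, edgeR). Its medians were 9.66 CPM in T2H and 4.94 CPM in T1ND, and the gaps differed by -3.94 ± 0.79. *Ube2c*, which marks mitotic cyclins for destruction, differed by -3.20 ± 0.58 and its gaps by -4.77 ± 0.78. *Birc5*, a protein of the dividing spindle, read 5.35, 8.20, 6.94 and 11 CPM against 0.301, 0.670 and 1.995 CPM (-3.01 ± 0.49), and *Cdkn2c*, an inhibitor of the G1 kinases that rises in dividing cells, differed by -1.55 ± 0.25. Levels of these genes were low in all 4 groups, at most 28.1 CPM for *Top2a*.

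The proliferation count between the diabetic groups was 10 without libraries above 20% acinar RNA, 11 with acinar and myeloid terms, 11 in Qiagen libraries, 9 with only the 2 groups in the fit, and 1 in TRIzol libraries, where T1D has 1 sample. The count for the difference of the gaps was 12, 17 and 3 under the first 3 of these. *Mki67* lost its call in Qiagen libraries (-2.11), in TRIzol libraries (-2.43) and with the acinar and myeloid terms (-1.85). Myeloid RNA was higher in T1D too, and cycling cells of another type were not tested. No brake on the cycle was called higher in T2D. Of 15 inhibitor and senescence genes 4 were higher in T1D (*Cdkn1a*, *Cdkn2d*, *Trp53* and *Gadd45b*). They include *Cdkn1a*, the p21 inhibitor (343, 377, 309.5 and 406 CPM against 106.999, 135 and 298 CPM, -1.02 ± 0.30), and *Trp53* (-0.63 ± 0.17). Without T1D 1 this count was 2 and *Cdkn1a* was no longer called (-0.91).

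**Figure D3:**
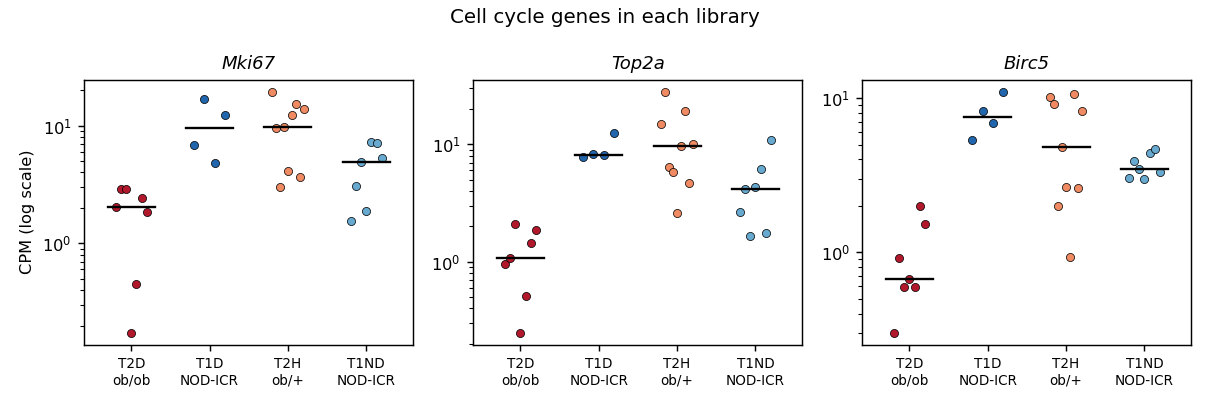
CPM (log scale) of *Mki67*, *Top2a* and *Birc5* in every library of 4 groups; points are libraries and bars are medians. T2D has the lowest median and T1D libraries lie above every T2D library. The highest ob/+ (T2H) library lies above every T1D library for *Mki67* and *Top2a* and just below the highest T1D library for *Birc5*.

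Among progenitor and dedifferentiation genes, 7 of 22 were higher in T2D (*Aldh1a3*, *Gast*, *Cck*, *Runx1t1*, *Dlk1*, *Serpina7* and *Bambi*) and 1 in T1D, where 6.9% of all genes tested were higher in T2D. The list as a whole did not lean to either side, with 11 folds above 0 and 11 below (median -0.04). *Aldh1a3*, a retinaldehyde dehydrogenase, stood at 99.97, 198 and 395 CPM in T2D and 0.448, 1.65, 1.03 and 0.537 CPM in T1D (8.61 ± 1.62, adjusted p = 0.000115, edgeR). No T1D library reached 2 CPM and no T2D library fell below 99.97 CPM. The gap was already present without diabetes (5.36 ± 1.09, adjusted p = 0.000766, edgeR), with 0.0422, 4.13 and 145.9 CPM in T2H (lowest, median, highest) and at most 2.17 CPM in T1ND. The highest T2H value belonged to T2H 9, the lone Qiagen library of that group, and the other 8 reached at most 21.4 CPM. T2H 9 also came from the oldest and heaviest mouse of its group, with the highest glucose (271 mg/dl). Which of these goes with its *Aldh1a3* level was not tested. *Cck* and *Gast*, gut peptide hormones that adult β cells do not normally make, were higher in T2D as well. *Cck* read 19.1, 38.91 and 124.4 CPM in T2D against 0.398, 0.155, 0.293 and 0.403 CPM in T1D (7.6 ± 1.47, adjusted p = 0.000175, edgeR), but at most 0.540 CPM in T2H and 2.14 CPM in T1ND (-0.45 ± 1.10), and the gaps differed by 8.06 ± 1.69 (adjusted p = 0.00293, edgeR). *Gast* read 1.94, 4.74 and 13.4 CPM against 0.0249, 0.218, 0.0977 and 0.179 CPM (6.31 ± 1.28), and its gaps differed by 4.02 ± 1.33, which did not pass (adjusted p = 0.0996, edgeR).

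*Bambi*, a decoy receptor that dampens TGF-β signals, stood at 61.8, 156 and 170.5 CPM in T2D and 27.9, 25.9, 31.2 and 31.3 CPM in T1D (2.07 ± 0.27, adjusted p = 3.11e-08, edgeR; gaps differed by 1.59 ± 0.32). *Runx1t1*, a transcriptional corepressor, read 10.7, 12.5 and 18.2 CPM against 2.86, 2.89, 0.489 and 3.35 CPM (2.55 ± 0.53). *Dlk1*, an imprinted fetal growth regulator, was higher in T2D by 2.09 ± 0.60, while without diabetes it was higher in NOD-ICR (-3.08 ± 0.53), and the gaps differed by 5.17 ± 0.81 (adjusted p = 6.11e-05, edgeR). Its T2D levels ranged from 2.18 to 62.9 CPM and overlapped those of T1D (4.43 to 8.39 CPM), and its call was lost without T1D 4 (1.93) and without libraries above 20% acinar RNA (1.69). The list gene higher in T1D was *Igf2bp3*, a fetal RNA-binding protein (-3.03 ± 0.69), with at most 3.53 CPM in T1D; without T2D 1, T2D 3 or T2D 6 the list had 2 genes higher in T1D. *Runx1t1* and *Igf2bp3* were named after their values were seen.

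Mature β cell genes showed no common direction. Of 20 β cell transcription factors, 2 were higher in T2D (*Rfx6* and *Hopx*; 1 without T1D 1 or T1D 4) and 2 in T1D (*Nkx6-1* and *Neurod1*), shares near those of all genes. *Rfx6*, a factor needed to form islet cells, read 40.7, 87.8 and 104 CPM in T2D and 30.6, 14.8, 17.6 and 9.97 CPM in T1D without overlap (1.91 ± 0.28, adjusted p = 9.23e-07, edgeR; gaps differed by 2.02 ± 0.35). *Nkx6-1*, which keeps the β cell fate, read 45.1, 57.9 and 76.1 CPM against 100.2, 105.6, 145.1 and 153 CPM (-0.91 ± 0.26), and *Neurod1*, an activator of the insulin genes, differed by -0.79 ± 0.19. *Nkx6-1* and *Neurod1* both lost their calls without libraries above 20% acinar RNA (-0.68 and -0.67). *Pdx1* (-0.08 ± 0.23, adjusted p = 0.873) and *Mafa* (-0.43 ± 0.50, adjusted p = 0.63, edgeR), activators of insulin transcription, were not called, and their levels overlapped. *Mafa* spread widely in both groups, over 3.79 to 54.6 CPM in T2D and 9.60 to 64.2 CPM in T1D, against 113 and 70.3 CPM at the medians of T2H and T1ND.

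Of 16 maturity markers, 4 were higher in T1D (*G6pc2*, *Prlr*, *Ero1b* and *Sytl4*) and 1 (*Dlk1*, a gene of immature cells, and none without T1D 4) in T2D. *Ero1b*, an oxidase that forms disulfide bonds in proinsulin, read 684, 989 and 1344 CPM in T2D and 1979, 1527, 3185 and 2054 CPM in T1D (-1.08 ± 0.23, adjusted p = 0.000468, edgeR). Without diabetes the gap was not called (0.06 ± 0.21), and the gaps differed by -1.14 ± 0.30 (adjusted p = 0.022, edgeR). *Sytl4*, which docks insulin granules, read 50.2, 75.8 and 136.1 CPM against 158.97, 178, 169.7 and 144.3 CPM (-1.07 ± 0.32). Without libraries above 20% acinar RNA the count was 0, and without T1D 3, the library richest in acinar RNA, it was 2. *Ucn3*, a late maturity hormone (0.76 ± 0.38, adjusted p = 0.185), and *Slc2a2*, the glucose transporter (-0.65 ± 0.31, adjusted p = 0.155, edgeR), were not called. *Ucn3* was lower in both diabetic groups than in either non-diabetic group at the median, with 157.7 CPM in T2D, 91.7 in T1D, 609.9 in T2H and 577.2 in T1ND.

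Hormone and granule genes gave 4 calls towards T2D (*Chgb*, *Scg2*, *Ptprn2* and *Rab3a*) and 2 towards T1D (*Pcsk1* and *Pam*; 1 without T2D 3, T2D 4, T2D 7 or T1D 3) among 23. *Ins1* (-0.47 ± 0.33), *Ins2* (0.36 ± 0.37) and *Iapp*, the amyloid peptide secreted with insulin (0.31 ± 0.30), were not called (adjusted p = 0.384, 0.583 and 0.539, edgeR). *Scg2*, a granule protein, read 5307, 6255 and 9134 CPM in T2D against 2419.8, 2826, 4069 and 2708 CPM in T1D (1.31 ± 0.32), and *Chgb*, another, 11576, 13714 and 19154 CPM against 5496, 8201, 7185 and 4573 CPM (1.25 ± 0.37). Neither overlapped between the groups, but *Chgb* lost its call without T1D 1 (1.19) or T1D 4 (1.11). The count towards T2D fell to 1 and 2 without these, and to 0 with acinar and myeloid terms. Towards T1D stood *Pam*, which amidates peptide hormones, with 545, 538, 822 and 425 CPM against 106.3, 167 and 222.7 CPM (-1.68 ± 0.47), beside -2.42 ± 0.44 between the non-diabetic groups. *Sstr3*, a receptor for inhibitory somatostatin, was higher in T2D (1.22 ± 0.26).

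**Figure D4:**
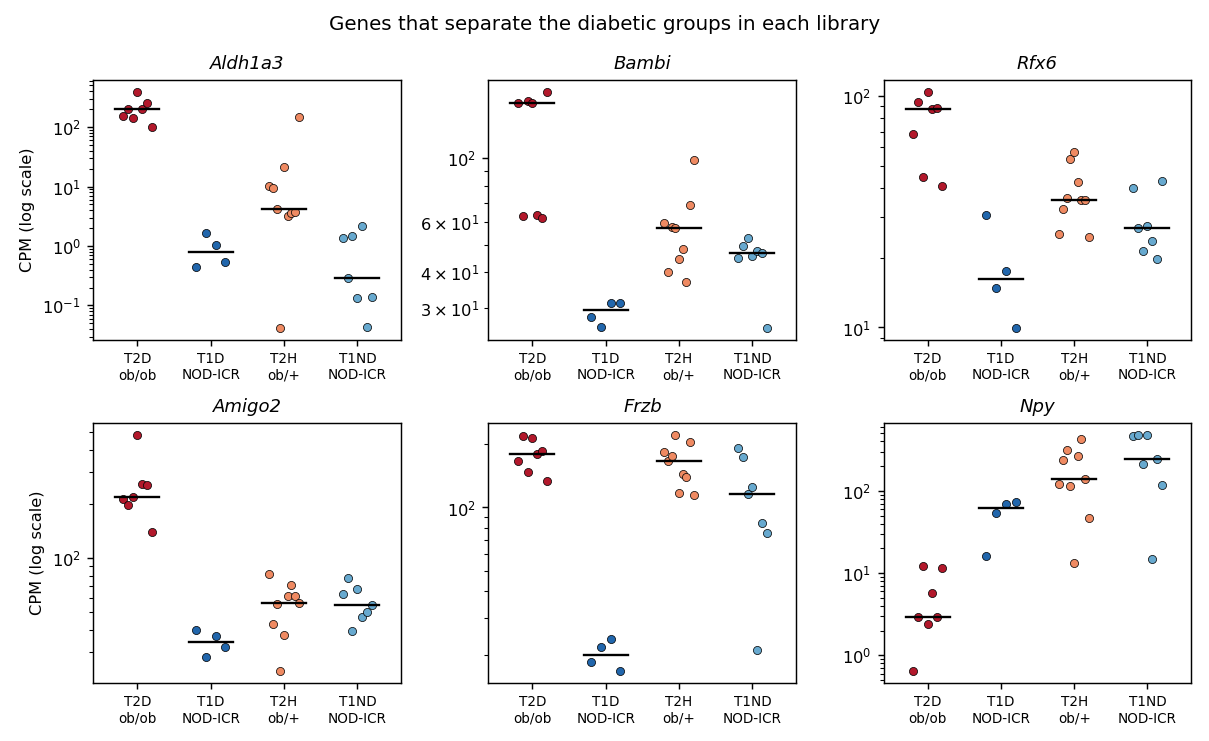
CPM (log scale) of *Aldh1a3*, *Bambi*, *Rfx6*, *Amigo2*, *Frzb* and *Npy* in every library of 4 groups; points are libraries and bars are medians. T2D and T1D do not overlap for any of the 6, with T2D higher for the first 5 and lower for *Npy*. Lack of overlap was a condition in the choice of *Amigo2*, *Frzb* and *Npy*.

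The genes that follow had the largest excess in T2D over T1D among called genes without overlap. They were further limited to genes that reach 20 CPM in the ICR adults of the series and do not follow the acinar list there. *Aqp4*, a water channel, stood at 74.1, 140.8 and 201.4 CPM in T2D and 3.66, 4.51, 2.74 and 10.5 CPM in T1D (4.68 ± 0.50, adjusted p = 2.78e-10, edgeR), and *Th*, the first enzyme of dopamine synthesis, at 19.6, 44.8 and 69.97 CPM against 3.01, 8.58, 3.13 and 6.66 CPM (3.36 ± 0.40). *Amigo2*, a neuronal adhesion protein, read 140.5, 218 and 484 CPM against 40.04, 28.3, 36.9 and 32 CPM (2.76 ± 0.31). For these 3 genes, as for the whole set, lack of overlap was fixed by the choice. The gap of each lay further towards T2D with diabetes than without, by 3.2 ± 0.55, 2.52 ± 0.46 and 3.1 ± 0.37. The diabetic fold by which the set was chosen is part of this difference, so the choice favours that direction. *Frzb*, a secreted Wnt inhibitor, stood at 18.4, 21.6, 23.7 and 16.7 CPM in T1D and at 134.2, 179.2 and 219 CPM in T2D, with 165.5 CPM at the median of T2H and 21.10 to 191 CPM in T1ND, whose lowest library lay within the T1D range (3.13 ± 0.38; gaps differed by 2.63 ± 0.44). That library, T1ND 5, came from the oldest and heaviest mouse of its group (212 days), with the highest glucose (245 mg/dl). Which of these goes with its *Frzb* level was not tested. *Ggcx*, the vitamin K-dependent carboxylase (2.93 ± 0.34), *Akr1e1*, an aldo-keto reductase (2.53 ± 0.28), and *Pappa2*, a protease that frees insulin-like growth factors (3.92 ± 1.07), also differed between the non-diabetic groups (2.0 ± 0.28, 1.96 ± 0.24 and 3.2 ± 0.84). *Kcnj5*, a G protein-gated potassium channel (3.42 ± 0.73), and *Rab3b*, a vesicle GTPase (2.65 ± 0.40), completed the set with *Mlxipl*.

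Among called genes without overlap whose higher group reached 10 CPM, the largest folds towards T2D after *Aldh1a3* and *Cck* were those of *Cartpt*, a neuropeptide precursor (5.88 ± 1.58), *Tm4sf20*, a membrane protein (5.83 ± 1.62), *Shisa2*, which holds back growth factor receptors (5.77 ± 0.96), *Acsl6*, an activator of long-chain fatty acids (5.47 ± 0.81), *Sorcs2*, a sorting receptor (5.44 ± 1.21), and *Slc5a10*, a sodium-coupled sugar transporter (4.84 ± 1.02). *Slc5a10* read 29.42, 97.1 and 217 CPM in T2D, 6.37, 5.03, 1.86 and 5.55 CPM in T1D, and medians of 0.928 and 0.456 CPM in T2H and T1ND; its gaps differed by 5.51 ± 1.21 (adjusted p = 0.00488, edgeR). *Sorcs2* had medians of 37.5, 0.920, 0.328 and 1.91 CPM in T2D, T1D, T2H and T1ND (gaps differed by 5.93 ± 1.39), while *Acsl6* also separated the non-diabetic groups (4.25 ± 0.61). Both *Slc5a10* and *Sorcs2* were chosen by their diabetic fold and by the difference of gaps itself. Towards T1D, outside the immune genes, *Npy*, neuropeptide Y, read 16.1, 53.2, 69.1 and 72.7 CPM against 0.647, 2.94 and 12.2 CPM (-3.19 ± 0.66, adjusted p = 0.000462, edgeR) and *Car15*, a carbonic anhydrase, 65.3, 123.4, 193 and 113 CPM against 9.71, 17 and 37.25 CPM (-2.49 ± 0.56). Both were chosen among genes without overlap between the diabetic groups. In T2H and T1ND the medians were 140.96 and 240.3 CPM for *Npy* and 86.8 and 157 CPM for *Car15*. *Gbp8*, an interferon-induced GTPase with close relatives, differed by -3.69 ± 0.61. *Crhr1*, the receptor for corticotropin-releasing hormone, was the gene whose gaps differed most towards T1D (-5.82 ± 0.76, adjusted p = 9.25e-07, edgeR), with 6.94, 2.86, 7.13 and 7.83 CPM in T1D, 0, 0.160 and 0.404 in T2D and medians of 13.1 in T2H and 6.17 in T1ND.

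Genes of glucose and sterol metabolism were called mostly towards T2D. ChREBP, encoded by *Mlxipl*, is the factor that switches on genes when glucose is plentiful, and 7 of 20 genes of its list were higher in T2D with 0 in T1D (median 0.69). Over all genes tested 6.9% were higher in T2D. *Mlxipl* itself read 29.96, 61.7 and 119.9 CPM in T2D and 16.6, 8.89, 6.30 and 10.3 CPM in T1D (2.34 ± 0.48, adjusted p = 0.000349, edgeR; gaps differed by 2.11 ± 0.57). *Pklr*, a pyruvate kinase, read 10.3, 24.37 and 38.6 CPM against 6.52, 7.40, 6.94 and 5.28 CPM (1.90 ± 0.38). *Fbp1*, an enzyme of glucose synthesis, differed by 2.16 ± 0.54, beside 2.17 ± 0.47 without diabetes, and *Bhlhe40*, a transcriptional repressor, by 1.41 ± 0.39. *Txnip*, the glucose-induced inhibitor of thioredoxin, was not called (0.31 ± 0.42, adjusted p = 0.679, edgeR) and was high in both diabetic groups, at 261, 527 and 628 CPM in T2D and 581, 291, 286.14 and 341 CPM in T1D against 139.7 and 66.9 CPM at the medians of T2H and T1ND. The ChREBP count was 2 in Qiagen libraries, 1 in TRIzol libraries and 2 without libraries above 20% acinar RNA.

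Of 20 glycolysis genes, 6 were higher in T2D and 2 (*Pfkfb2* and *Tpi1*) in T1D. The latter count was 1 without any single library but T2D 4 (4) and T2D 6 (2). *Pfkm*, a subunit of phosphofructokinase, read 22.7, 29.9 and 31.9 CPM against 16.4, 14.1, 12.7 and 17 CPM (0.95 ± 0.18, adjusted p = 7.16e-05, edgeR), *Pkm*, pyruvate kinase, differed by 0.80 ± 0.20 and *Aldoc*, an aldolase, by 1.41 ± 0.30. *Pdk1*, which keeps pyruvate out of the mitochondrion and responds to hypoxia, read 27.3, 36.69 and 83.5 CPM against 12.5, 11.1, 10.2 and 16.1 CPM (1.74 ± 0.34). All T2D libraries lay above all T1D libraries for *Pfkm* and *Pdk1*. Over the 20 glycolysis genes, 3 were higher in T2D without overlap and 4 higher in T1D without overlap. Of the folds 11 lay above 0 and 9 below (median 0.09). *Acadm*, an enzyme of fatty acid oxidation, was higher in T2D by 1.12 ± 0.24. Of 20 cholesterol synthesis genes, 6 were higher in T2D and 0 in T1D, and the gaps differed towards T2D for the synthesis enzymes *Hmgcs1* (1.21 ± 0.31), *Fdft1* (1.22 ± 0.29) and *Msmo1* (0.94 ± 0.25). The sterol enzymes *Lss* and *Sc5d* differed by 1.53 ± 0.32 and 1.41 ± 0.23. In Qiagen libraries the glycolysis and cholesterol counts were 2 and 1, and in TRIzol libraries 1 and 2. Of 43 oxidative phosphorylation genes 2 (*Cox5a* and *Atp5d*) were higher in T1D and 0 in T2D, below the shares of all genes tested (7.01% and 6.9%). The count towards T1D was 1 without T2D 2 or T1D 4. Of 31 ribosomal protein genes none was called by edgeR (2 at an unadjusted p below 0.05).

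Stress genes were called in both directions. The integrated stress response, which raises amino acid supply when translation is impaired, had 7 of 24 genes higher in T2D and 0 in T1D. Over all genes tested 6.9% were higher in T2D. *Slc7a5*, an amino acid transporter (1.33 ± 0.37), and *Phgdh*, the first enzyme of serine synthesis (1.46 ± 0.41), overlapped between the groups in some libraries, and both calls were lost without T1D 2 (1.08 and 1.18). The count itself was 0 without T1D 2, 2 without T1D 4, 3 without T2D 3 or T2D 5, 4 without T2D 2 or T1D 1, and 4 with median-ratio scaling. Of 24 chaperone genes of the endoplasmic reticulum, 1 (*Ero1b*) was higher in T1D and 0 in T2D. *Hspa5*, the main chaperone, was not called (0.57 ± 0.26, adjusted p = 0.15, edgeR). Of 18 antioxidant genes 4 were higher in T1D and 0 in T2D (*Nqo1*, *Gpx1*, *Nfe2l2* and *Txn1*). *Gpx1*, a glutathione peroxidase, read 306, 341, 377 and 435 CPM in T1D and 67.2, 95.5 and 133.4 CPM in T2D (-1.77 ± 0.27, adjusted p = 1.36e-06, edgeR; gaps differed by -1.38 ± 0.35), and *Txn1*, thioredoxin, differed by -0.85 ± 0.23 (-0.69 and no longer called without T1D 4). The antioxidant count was 1 without T1D 4 and 2 without T2D 1, T2D 5, T2D 6 or T1D 2. *Gpx1* did not overlap between the groups. *Igf1r*, the receptor for insulin-like growth factor 1, was higher in T1D (-1.24 ± 0.30). *Spp1*, osteopontin, a secreted protein of ducts, macrophages and injured tissue, stood at 4464, 5153, 9628 and 4532 CPM in T1D and 31.1, 157.8 and 547.9 CPM in T2D (-4.42 ± 0.75, adjusted p = 1.94e-05, edgeR), with medians of 141.8 CPM in T2H and 857 CPM in T1ND.

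Calls among marker genes of other cells varied by list, from 0% of acinar genes to 30% of delta and PP genes, against 13.9% of all genes tested. No acinar gene of 19 was called by edgeR (1 at an unadjusted p below 0.05), but all 19 folds lay towards T1D, with a median log2 fold of -1.88. Of 10 duct genes 1 (*Spp1*) was higher in T1D, and of 17 lymphoid genes 2 (*Lck*, a T cell kinase, among them) were, with 0 without T2D 1, T2D 4, T2D 6, T1D 1 or T1D 2 and 1 without T2D 3, T2D 5 or T1D 3. *Gzma* and *Gzmb*, granule proteases of killer lymphocytes, had no count in T2D, and *Gzma* had none in T1D. Of 10 delta and PP cell genes 2 (*Casr* and *Fxyd6*) were higher in T2D and 1 in T1D, the latter 3 without T2D 3 or T2D 7 and 2 without T1D 4. *Fxyd6*, a regulator of the sodium pump, read 49.71, 90.2 and 125.4 CPM in T2D against 9.75, 7.89, 14.2 and 12.2 CPM in T1D (3.02 ± 0.48), and *Fabp5*, a fatty acid-binding protein, was higher in T1D (-2.53 ± 0.43). Summed over the list, delta and PP genes held 0.0308% to 0.533% of counts in T2D and 0.199% to 0.530% in T1D. Genes that rise when tissue is dissociated were higher in T1D for 5 of 20 (*Jund*, *Ier3*, *Klf2*, *Klf4* and *Klf6*), against 7.01% of all genes tested. The shear-stress factor *Klf2* read 13.6, 3.11, 3.76 and 10.9 CPM against 0.107, 0.286 and 2.27 CPM (-3.40 ± 0.82), and without T1D 1 the count was 2.

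Set side by side, 515 genes were called in both comparisons, 504 of them in the same direction and 11 in opposite directions. The comparisons share no library, but both use the extraction effect estimated from all 63. Those 504 genes are 54.2% of the calls between T2H and T1ND and 22.5% of the calls between T2D and T1D. By sign alone, 1780 of the 2239 genes called between T2D and T1D lay on the same side of 0 between T2H and T1ND. The same held for 837 of the 930 genes called between T2H and T1ND. These counts by sign were not tested against all genes. Of the genes higher in T1D, 347 of 1128 (30.8%) were also called higher in T1ND, and of the genes higher in T2D, 157 of 1111 (14.1%) were also called higher in T2H. The difference of the gaps was called for 282 (12.6%) of the 2239 genes that differed between the diabetic groups. Without the extraction term 763 genes were called in both in the same direction, and in Qiagen libraries alone 20, where 34 genes were called between the non-diabetic groups. By list, the interferon and MHC class I medians lay on the same side of 0 in both comparisons, the proliferation medians on opposite sides.

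**Figure D5:**
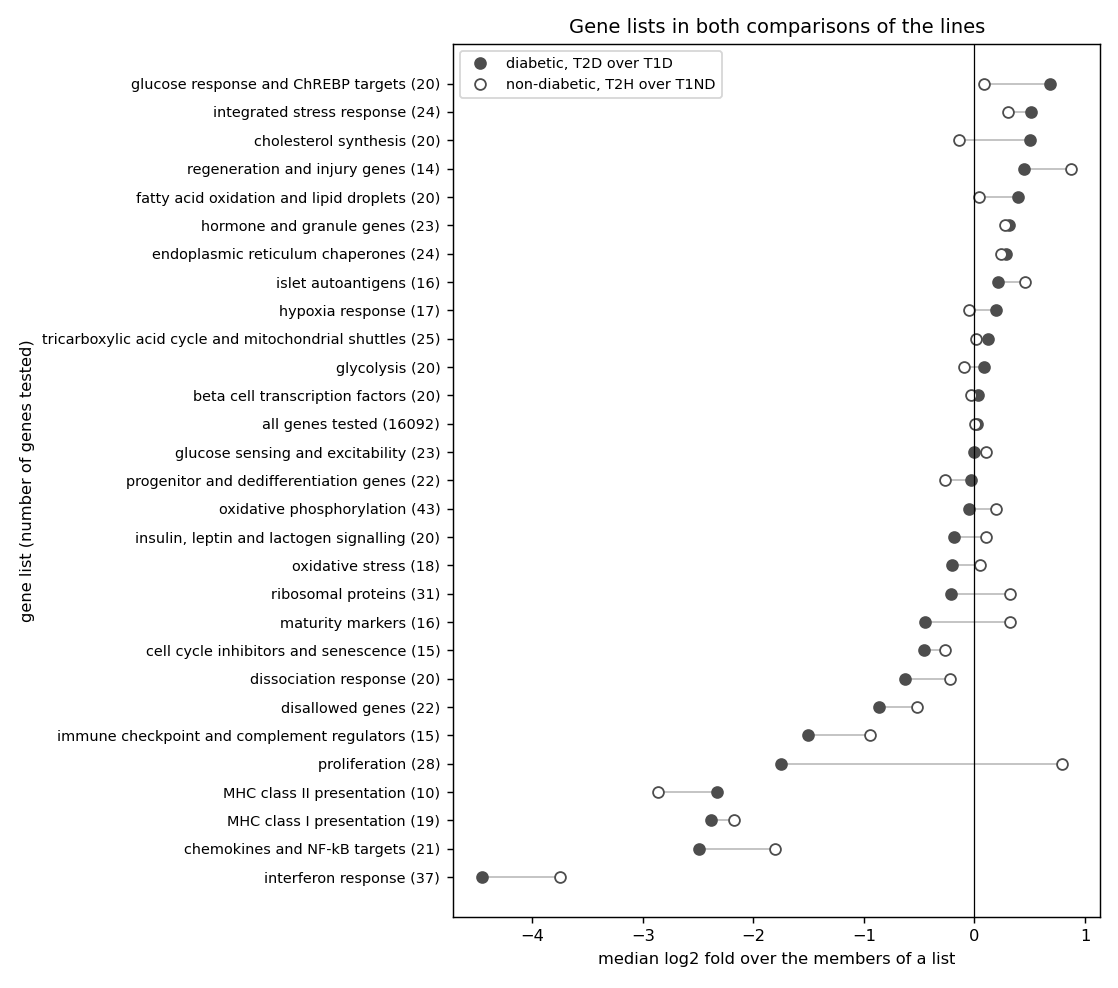
Median log2 fold over the members of each gene list (number tested in brackets) for T2D over T1D (filled) and T2H over T1ND (open), with all genes tested as reference near 0. The interferon list lies at -4.45 and -3.75, and the proliferation list at -1.75 and 0.79.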

How the data were processed

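Gene expression was measured by RNA sequencing of mCherry-sorted pancreatic cells. Per the labels' protocols, islets were purified on a density gradient and dissociated, TRIzol or Qiagen columns served for extraction, and SMART-Seq v4 and Nextera XT libraries, which keep no strand, were made. Per the submitters' processing notes, bcl2fastq 2.20.0.422, Bowtie 1.2.2, RSEM 1.3.0 and mm10 were used. The authors deposited expected counts per gene from these, which were rounded here (48.5% of values were not whole). A second table of normalized values was not used.

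Genes were filtered with filterByExpr and scaled by TMM in edgeR 4.0.16 (R 4.3.3). A single robust quasi-likelihood fit held 9 group means and an extraction term over 63 libraries, with Benjamini-Hochberg adjustment over 16092 of 20306 genes and calls at 0.05. Qiagen columns served for 3 of 7 T2D and 3 of 4 T1D libraries. Standard errors come from the F statistic. Shares of counts were compared by exact permutation. The script was tested on simulated data. Nothing in the labels gives separate cultures or pooled animals; each label carries its own age, weight and glucose, and p-values measure the spread between these samples. Replicate numbers follow the order of the labels.

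Named genes are first the 8 largest calls each way of at least 10 CPM without overlap. To these come the 10 largest each way by the same rule among a narrower set. That set has 20 CPM or more in ICR adults and a Spearman correlation to the acinar list up to 0.5. Further ones are up to 4 called members of each of 38 lists, 22 anchor genes and the 4 largest each way for the difference of gaps. A part of these is reported. A few genes are not reported here. The members, lists and alternatives were chosen with earlier results of these data known. Alternatives were DESeq2 1.42.0, voom with sample weights (limma 3.58.1), median-ratio factors, other filters, no extraction term, each extraction alone, adult libraries, sex and age terms, 1 copy of Ins2-Cre, an S number term, acinar and myeloid terms, libraries up to 20% acinar, the compared groups alone and single libraries left out. The fit without T2D 1 and T2D 5, and list counts for the non-diabetic gap and the difference of gaps, were added after the data were seen.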

Additional observations from a re-analysis of the deposited data

Results flagged for a closer look

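Within the diabetic groups, 19 of 198 sets of values held a library whose gap to the nearest other passed Dixon's 95% critical value; chance gives about 1 in 20. The acinar share of T2D 3 (34.2%) was far above the other T2D libraries. T1D 3 stood above the rest of its group for *Ggcx* (18.7) and *Spp1* (9628) CPM. T1D 4 stood above the rest of its group for *Top2a* (12.6) CPM. T2D 1 stood above the rest of its group for *Hspa5* (6970.0) and *Rab3a* (183) CPM. T2D 2 stood above the rest of its group for *Car15* (37.25), *Cxcl9* (4.28), *Gbp2* (4.57) and *Sstr3* (172) CPM. T2D 4 stood above the rest of its group for *Amigo2* (484), *Lyz2* (576.9) and *Shisa2* (88.2) CPM. T2D 7 stood above the rest of its group for *Cdkn1a* (298), *Ins1* (145613), *Psmb9* (8.41) and *Txn1* (104.7) CPM. T1D 1 stood below the rest of its group for *Aldoc* (3.11) CPM. T2D 1 stood below the rest of its group for *H2-T23* (11.6) CPM. The gap between the models differed with diabetes, by the interaction test in edgeR, for 24 of the genes whose levels were followed library by library. Genes outside that set, such as *Hmgcs1*, *Fdft1* and *Msmo1* above, are not counted here. It moved towards T2D for *Cck* (8.06), *Sorcs2* (5.93), *Slc5a10* (5.51), *Dlk1* (5.17), *Shisa2* (3.90), *Aqp4* (3.2), *Amigo2* (3.1), *Runx1t1* (2.93), *Fxyd6* (2.66), *Rab3b* (2.65), *Frzb* (2.63), *Th* (2.52), *Mlxipl* (2.11), *Rfx6* (2.02), *Aldoc* (1.68) and *Bambi* (1.59). It moved towards T1D for *Crhr1* (-5.82), *Ube2c* (-4.77), *Top2a* (-4.46), *Mki67* (-3.94), *Birc5* (-3.79), *Cdkn2c* (-2.39), *Gpx1* (-1.38) and *Ero1b* (-1.14). These are log2 differences of the diabetic gap minus the non-diabetic gap. Some of these genes were chosen by the diabetic fold or by this difference itself, and the choice favours a difference in that direction.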

How the results depend on the processing

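The 2239 calls between T2D and T1D became 773 in Qiagen libraries, 504 in TRIzol libraries, 1246 with acinar and myeloid terms, 1098 without libraries above 20% acinar RNA, 1263 with only the 2 groups, 1383 at 2-fold, and 1539 (without T1D 1) to 2443 (without T2D 7) with single libraries left out. DESeq2 gave 2462 and voom 3309. The 930 calls between T2H and T1ND became 1708 without the extraction term, 34 in Qiagen libraries, 601 and 581 with terms for sex and for sex and age, 364 with acinar and myeloid terms, 18 with only the 2 groups and 699 to 967 with single libraries left out; TRIzol alone cannot give it, since no T1ND library used TRIzol. The 345 calls for the difference of gaps became 554 with DESeq2, 662 with voom, 24 in Qiagen libraries, 98 without libraries above 20% acinar RNA, 132 with only the 4 groups and 200 (without T1D 4) to 439 with single libraries left out. Over the named genes, 2731 of 2883 alternative values kept direction and side of the threshold, 139 lost the call, 4 gained it and 9 changed sign, 34 and 42 of the losses in Qiagen and TRIzol libraries alone; the cause was not tested, apart from fewer samples. Sign changes, none in a called gene, were *Iapp*, -0.0073 (Qiagen); *Ins2*, -0.031 (voom with sample weights), -0.031 (Qiagen), -0.22 (acinar and myeloid terms); *Pdx1*, 0.25 (TRIzol), 0.14 (no library above 20% acinar), 0.022 (without T2D 7), 0.042 (without T1D 3); *Txnip*, -0.57 (TRIzol). With single libraries left out *Pdx1* ran from -0.18 to 0.042. No paired analysis was possible because the labels give no replicate numbers; those used here follow label order only. Depth limits genes near the floor of 3 counts.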

Other observations

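Endothelial genes held 7.68e-04% to 0.00219% in T2D and 3.29e-04% to 0.00328% of counts in T1D, and alpha cell genes 0.156% to 0.678% and 0.147% to 0.621%. Of 20 genes of fatty acid oxidation and lipid droplets 2 (*Cpt1a* and *Acadm*) were higher in T2D and 1 (*Lpl*) in T1D, with lowest counts of 1 and 0 when single libraries were left out, and of 25 genes of the tricarboxylic acid cycle and mitochondrial shuttles 1 (*Suclg2*; up to 3 without T1D 3) and 0. The fatty acid and tricarboxylic acid cycle counts were near the shares of all genes tested (6.9% higher in T2D, 7.01% higher in T1D). *Saa3*, an acute-phase protein, stood at 9.182, 2.70, 0.0489 and 7.56 CPM in T1D and at most 0.626 CPM in T2D (-6.40 ± 1.42, adjusted p = 0.000978, edgeR), and T1D 3 lay within the T2D range.

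Glucose sensing and excitability genes (23 tested) had 1 higher in T2D (*Sstr3*) and 2 in T1D (*G6pc2* and *Kcnj11*). Hypoxia response genes (17 tested) had 3 higher in T2D (*Pdk1*, *Bnip3* and *Egln3*) and 0 in T1D. Insulin, leptin and lactogen signalling genes (20 tested) had 1 higher in T2D (*Ghr*) and 4 in T1D (*Igf1r*, *Prlr*, *Stat3* and *Socs3*). Islet autoantigen genes (16 tested) had 2 higher in T2D (*Ptprn2* and *Ica1*) and 1 in T1D (*G6pc2*). Genes that β cells normally keep silent (22 tested) had 1 higher in T2D (*Cd59a*) and 1 in T1D (*Smad3*). By sign this list leaned towards T1D, with 3 folds above 0 and 19 below (median log2 fold -0.87, against 0.021 over all genes tested). Over all genes tested 6.9% were higher in T2D and 7.01% in T1D. The glucose sensing, autoantigen and silent gene counts of called genes were near those shares. The hypoxia count was 1 without T2D 5, T1D 1 or T1D 3, the glucose sensing count in T1D was 0 or 1 without T2D 2, T2D 3 or any T1D library, *Ghr* was not called without T2D 1, T2D 2, T2D 4 or T1D 4, and the autoantigen and disallowed counts ran from 0 to 3 with single libraries left out.

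T1ND 1, a non-diabetic NOD-ICR library, stood near the BTBR groups for interferon genes: *Psmb8* 15.9 CPM and *Cd274* 6.59 CPM, where the other 6 T1ND libraries reached at least 119.04 and 29.1 CPM.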
